A study of Mus musculus with 4 samples.

Results

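The repeats described here lie across the largest olfactory receptor gene cluster of the mouse, on chromosome 2. Members were all LTR and LINE loci, and all entries for the intervals flanking such loci, whose repeat starts between positions 85000000 and 90000000 on mm9. There were 648 such entries among 640693 in the series, and they belonged to 482 distinct repeats of 366819. Of these entries, 18 were LTR loci (of 6216), 140 were LINE loci (of 145916), 228 and 257 were intervals upstream and downstream of LINE repeats, and 1 and 4 were intervals upstream and downstream of LTR repeats. GENCODE vM1 placed 262 Olfr genes and 46 other genes in the window. RNA was sequenced from C57BL/6J mice in 4 groups with 1 library each, namely fibroblasts of adult tail tips transformed with SV40, either WT or Lsh-/-, and E13.5 embryos, either WT or Lsh-/-. The fibroblast lines are transformed cultures, and how many animals or embryos stand behind a library is not stated. The methods speak of heterozygous and homozygous Lsh embryos while the labels call the controls WT, and the tables hold repeats only, so Lsh itself was not measured here. Each library held between 19216257 and 33904311 counts over its 6 tables.

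Olfactory receptor genes encode odorant receptors of the nasal epithelium. They stand in long clusters that are silent in most other tissues and are dense in LINE-1 repeats. LTR loci are endogenous retroviruses, whose terminal repeats carry the promoter and the site where transcripts end. The intracisternal A-particle (IAP) elements are a young and mobile family among them. LINE-1 elements lack terminal repeats, and most copies are truncated at the 5′ end. Lsh is a chromatin remodeller of the SNF2 family that is needed for normal DNA methylation of repeats.

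The 5′ ends of 8 IAP members are shown first, 6 that held nearly all LTR reads of the window in Lsh-/- fibroblasts and 2 for contrast. Each sequence is the first 150 bases of the locus on its own strand, 5′ to 3′, from mm9, with CpG dinucleotides in capitals. Loci are named by the closest Olfr gene. The first 6 had 10 or more counts in the fibroblast pair. They lie at chr2:85534736-85541845 (plus strand, near Olfr1008), chr2:87774374-87781453 (plus, near Olfr1155), chr2:86179904-86186982 (minus, at Olfr1055), chr2:88012111-88019264 (plus, near Olfr1168), chr2:85798220-85805185 (plus, near Olfr1028) and chr2:88453624-88457736 (minus, near Olfr475-ps1). The last 2 are an IAPLTR1a_Mm locus at chr2:88203599-88209307 (minus, near Olfr1177-ps) and an IAPLTR4 locus at chr2:85312843-85320652 (plus, near Olfr995), which had almost no reads.
IAPLTR1a_Mm near Olfr1008: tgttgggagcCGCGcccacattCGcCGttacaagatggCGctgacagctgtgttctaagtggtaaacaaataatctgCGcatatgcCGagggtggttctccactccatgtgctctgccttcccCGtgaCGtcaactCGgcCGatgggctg
IAPLTR1a_Mm near Olfr1155: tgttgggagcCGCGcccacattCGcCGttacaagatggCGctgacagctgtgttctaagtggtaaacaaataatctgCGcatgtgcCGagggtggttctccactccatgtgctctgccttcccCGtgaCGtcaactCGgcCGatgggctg
IAPLTR1_Mm at Olfr1055: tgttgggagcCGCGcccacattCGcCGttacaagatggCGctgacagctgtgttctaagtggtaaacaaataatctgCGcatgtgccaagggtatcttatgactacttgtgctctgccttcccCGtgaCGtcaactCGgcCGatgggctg
IAPLTR1_Mm near Olfr1168: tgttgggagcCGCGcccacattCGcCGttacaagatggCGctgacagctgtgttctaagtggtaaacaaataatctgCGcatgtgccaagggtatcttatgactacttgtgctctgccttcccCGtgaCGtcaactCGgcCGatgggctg
IAPLTR4 near Olfr1028: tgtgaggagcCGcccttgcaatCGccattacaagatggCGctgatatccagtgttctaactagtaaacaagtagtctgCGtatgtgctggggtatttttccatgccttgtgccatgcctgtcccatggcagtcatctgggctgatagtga
IAPEY_LTR near Olfr475-ps1: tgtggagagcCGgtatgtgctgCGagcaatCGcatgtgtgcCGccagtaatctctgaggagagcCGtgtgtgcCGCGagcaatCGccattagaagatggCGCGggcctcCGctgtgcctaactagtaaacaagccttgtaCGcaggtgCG
IAPLTR1a_Mm near Olfr1177-ps: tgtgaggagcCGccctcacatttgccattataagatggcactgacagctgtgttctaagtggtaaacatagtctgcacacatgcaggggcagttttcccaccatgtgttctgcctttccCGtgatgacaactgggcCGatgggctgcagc
IAPLTR4 near Olfr995: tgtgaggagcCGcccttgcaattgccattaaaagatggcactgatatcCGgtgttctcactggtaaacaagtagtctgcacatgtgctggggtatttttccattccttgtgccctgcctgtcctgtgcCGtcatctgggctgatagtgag
The loci near Olfr1008, Olfr1155 and Olfr1168 and the locus at Olfr1055 shared all 60 of their first 60 bases. The locus near Olfr1177-ps, although it bears the same family name as the first pair, matched them at 52 of 60. The 2 IAPLTR4 loci shown matched each other at 55 of 60.

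In fibroblasts, the LTR reads of the window were almost all in the Lsh-/- library and almost all on IAP elements. The 18 LTR members together had 5 counts in the WT and 1063 in the Lsh-/- fibroblast library. As a share of all LTR counts of the library, this was 0.00664% (95% Wilson interval 0.00284% to 0.0155%) and 0.548% (0.516% to 0.582%), a ratio of 82.5. Scaled by the library sizes used for single loci, the ratio was 206 (95% exact binomial interval 87.9 to 635). The share gives the smaller ratio because the LTR table of the Lsh-/- library as a whole held more counts, 194084 against 75307. All such intervals cover counting error only. The 6 IAP members shown first held 1050 of the 1063 counts, or 98.8% (Wilson interval 97.9% to 99.3%). With 1 library per genotype, no difference in the window has a replicate check and none was tested across genotypes.

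The IAPLTR4 locus near Olfr1028 had the most reads of any member, at 1 count in the WT and 358 in the Lsh-/- fibroblast library. The ratio was 347 (interval 61.8 to 13730). The IAPLTR1a_Mm locus near Olfr1155 followed with 0 and 264 counts, at least 85.2-fold higher in Lsh-/- cells when the WT library is set to the 3 counts that a count of 0 allows. Both were therefore near silence in WT fibroblasts and among the 133 LTR loci with the most reads, of 4476 listed, in Lsh-/- fibroblasts. The IAPLTR1_Mm locus at Olfr1055 had 1 and 141 counts, a ratio of 137 (24.1 to 5431). The IAPLTR1_Mm locus near Olfr1168 had 0 and 116 counts (at least 37.4-fold), and the IAPLTR1a_Mm locus near Olfr1008 had 0 and 109 (at least 35.2-fold). The IAPEY_LTR locus near Olfr475-ps1, of a separate IAP subfamily, had 0 and 62 counts (at least 20.01-fold). Per kilobase of locus, the 6 members held between 15.1 counts (IAPEY_LTR) and 51.4 counts (IAPLTR4 near Olfr1028) in the Lsh-/- fibroblast library. On the log2 scale, with a small prior count added to both libraries, the differences ran from 6.93 to 11.02. Where WT had 0 counts these values and their order depend on the prior. With counts of 0 set to 3 they ran from 4.32 for IAPEY_LTR to 8.44 for IAPLTR4 near Olfr1028.

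All 6 members with at least 10 counts in the fibroblast pair exceeded a log2 difference of 5. Of all IAP loci with that many counts 81.1% did so, and of all LTR loci 60.3%. With 0 counts in WT a locus had to exceed 5 under the prior. This was the case for 4 of the 6 members, 932 of 1316 IAP loci and 1103 of 2103 LTR loci. The median of the 6 was 9.34, beside 6.50 over all LTR loci tested. With WT counts of 0 set to 3 the medians were 5.82 and 2.86. Above 5 there then remained 5 of the 6 members, 299 of 1316 IAP loci and 359 of 2103 LTR loci.

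The other 5 IAP members were close to silent in all 4 libraries. The IAPLTR1a_Mm locus near Olfr1177-ps had 1 count in each fibroblast library. In embryos it had 0 counts in WT and 2 in Lsh-/-. The IAPLTR2_Mm locus near Olfr1229 had 0 and 1 count in fibroblasts and 0 and 4 in embryos. The IAPLTR2a locus near Olfr1152 (1 count, WT fibroblasts) and the IAPLTR4 locus near Olfr995 (2 counts, WT embryos) were each listed in 1 library. The IAPLTR4 locus near Olfr1251 had 0 counts in both fibroblast libraries and 6 and 4 in WT and Lsh-/- embryos. High counts in Lsh-/- fibroblasts thus occurred at 6 of 11 IAP members, and 2 of the 3 IAPLTR4 members did not take part.

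**Figure D1:**
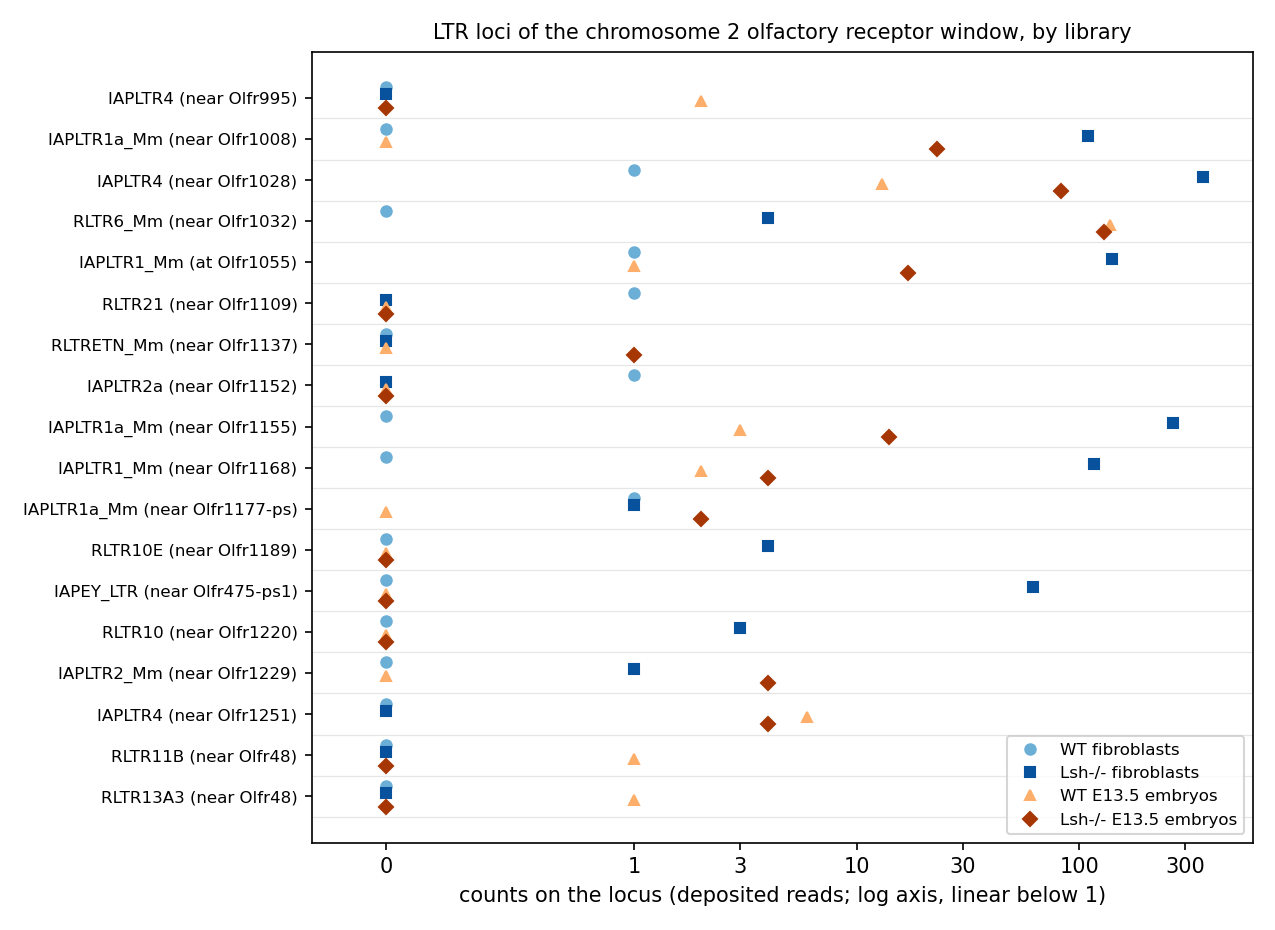
Counts on each of the 18 LTR loci of the window (rows, in genome order, named by the closest Olfr gene) in the 4 libraries, 1 symbol per library, on a log axis that is linear below 1. In Lsh-/- fibroblasts 6 IAP loci hold 62 to 358 counts where the WT library holds 0 or 1, while RLTR6_Mm holds 137 and 129 counts in WT and Lsh-/- embryos and 0 and 4 in the fibroblasts.

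The non-IAP LTR members had few reads in fibroblasts, and none reached 10 counts in that pair. Both RLTR10 members, another ERVK family, had a few reads in the Lsh-/- fibroblast library and in no other (4 counts for RLTR10E near Olfr1189, 3 for RLTR10 near Olfr1220). The 4 other ERVK members (RLTR21, RLTRETN_Mm, RLTR11B and RLTR13A3) had at most 1 count in any library, and the last pair overlap each other. RLTR6_Mm near Olfr1032 (chr2:85858616-85863747, plus strand) is the only ERV1 member. It had 0 and 4 counts in WT and Lsh-/- fibroblasts, but 137 and 129 in WT and Lsh-/- embryos. Its embryo ratio was 0.978 (interval 0.763 to 1.25), so it was transcribed in embryos at a level that these 2 libraries do not separate by genotype.

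In embryos the IAP members differed less between genotypes than in fibroblasts. All LTR members together held 166 counts in the WT and 281 in the Lsh-/- embryo library, a ratio of 1.49 as shares of all LTR counts and of 1.76 (1.45 to 2.14) by library size. IAP members held 27 of the WT counts (16.3%, interval 11.4% to 22.6%) and 151 of the Lsh-/- counts (53.7%, 47.9% to 59.5%), with RLTR6_Mm making up most of the rest.

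The IAPLTR4 locus near Olfr1028 had 13 counts in WT and 83 in Lsh-/- embryos, a ratio of 6.63 (3.67 to 13.0). The IAPLTR1a_Mm locus near Olfr1008 had 0 and 23 (at least 7.96-fold). The IAPLTR1_Mm locus at Olfr1055 had 1 and 17 (ratio 17.7, interval 2.77 to 738). The counts of all 3 were higher in the Lsh-/- library. The IAPLTR1a_Mm locus near Olfr1155 had 3 and 14 (ratio 4.85, interval 1.35 to 26.3), so that each of the 3 ratios given had an interval above 1. The IAPLTR1_Mm locus near Olfr1168 had 2 and 4 (2.08, 0.298 to 23.0), with an interval that includes 1. The IAPEY_LTR locus, with 62 counts in Lsh-/- fibroblasts, had 0 in both embryo libraries. Of the 5 IAP members with at least 10 counts in the embryo pair, 1 exceeded a log2 difference of 5, beside 51% of all IAP loci. Among the 6 LTR members tested this was again 1, beside 26.5% of all LTR loci. The IAPLTR4 locus near Olfr1251 had a ratio below 1, at 0.692 (interval 0.144 to 2.92).

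The 4 members tested in both tissues were higher in Lsh-/- than in WT in both. With counts of 0 set to 3, the log2 differences in fibroblasts and embryos were 5.14 and 2.99 near Olfr1008, 7.09 and 4.14 at Olfr1055, 8.44 and 2.73 near Olfr1028, and 6.41 and 2.28 near Olfr1155. Each value was larger in fibroblasts, a difference that was not tested. Near Olfr1008 WT had 0 counts in both tissues, so its values are lower bounds that cannot be ordered. At Olfr1055 the intervals of the ratios overlap, at 24.1 to 5431 in fibroblasts and 2.77 to 738 in embryos. Near Olfr1028 and Olfr1155 the larger fibroblast value went with WT embryo counts of 13 and 3, where the WT fibroblast library had 1 and 0. An embryo library is a mixture of many cell types, in which fewer cells with the transcript and less transcript per cell cannot be told apart.

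CpG number at the 5′ end separated most IAP members with high counts in Lsh-/- fibroblasts from the others, by a narrow margin. In the first 300 bases, the 6 members with high counts in Lsh-/- fibroblasts had 9, 15, 16, 16, 18 and 20 CpG dinucleotides, the lowest being the IAPLTR4 locus near Olfr1028. Of the 5 others, 4 had between 6 and 8, so the margin lay between 8 and 9. The exception was IAPLTR2_Mm near Olfr1229, with 22 CpG and 1 count. Its annotated sequence begins with AA, unlike the TG with which the other IAP members begin. Over the whole element, CpG per kb did not separate them, at 12.9 to 28.0 in the 6 and 10.8 to 28.1 in the 5 others. These are 11 loci that share sequence by descent, so the pattern at the 5′ end is given as a description.

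**Figure D2:**
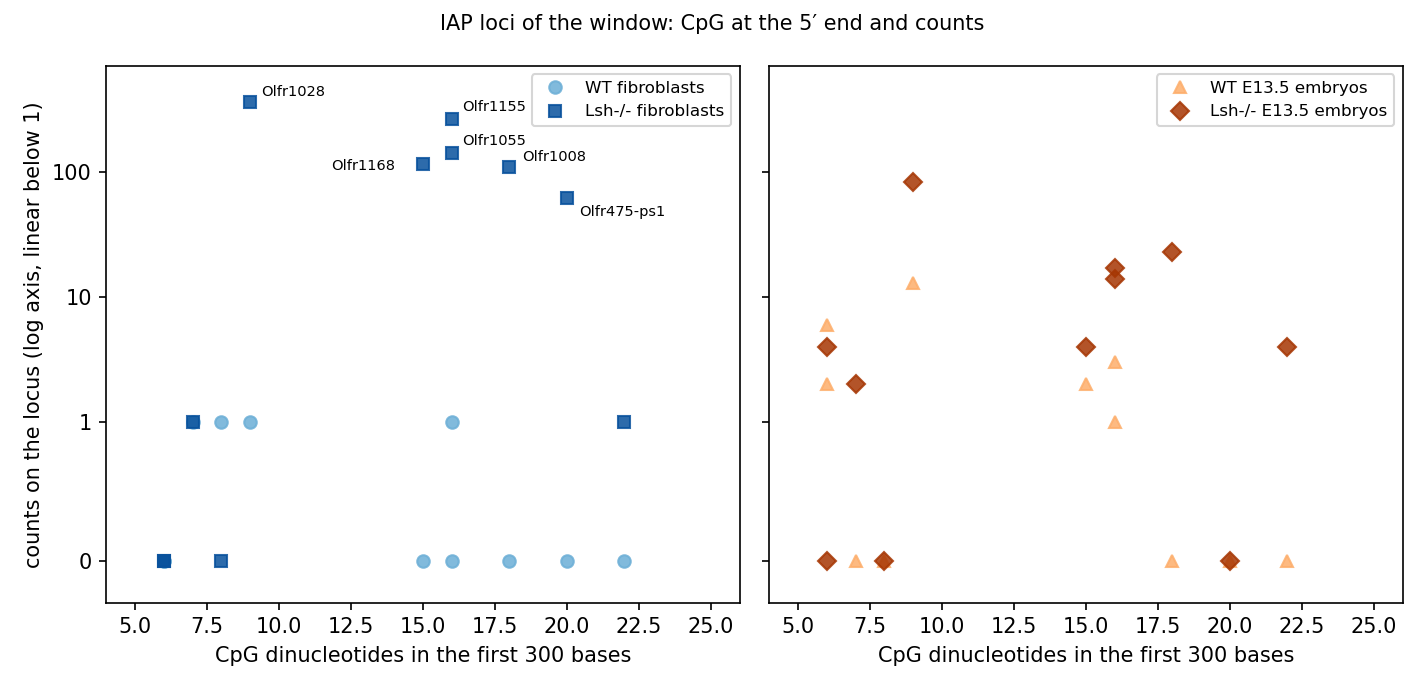
Counts on the 11 IAP loci of the window (log axis, linear below 1) against the number of CpG dinucleotides in the first 300 bases of the locus, for fibroblasts (left) and embryos (right), 1 symbol per library. Loci with 62 or more counts in Lsh-/- fibroblasts have 9 to 20 CpG and are labelled by the closest Olfr gene, and the locus with 22 CpG has 1 count.

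LINE loci of the window were listed in Lsh-/- fibroblasts far more often than in WT. The 140 LINE members had 11 counts on 9 loci in WT and 592 counts on 95 loci in Lsh-/- fibroblasts, a ratio of 56.4 as shares of all LINE counts and of 52.1 (28.9 to 105) by library size. In embryos they had 115 counts on 27 loci and 175 on 40 loci (ratio 1.61 by share and 1.58, 1.24 to 2.02, by library size). Most of the loci listed in Lsh-/- fibroblasts had few reads, with 67 of 95 at 1 to 3 counts and 12 at 10 or more.

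The young L1Md families, whose full-length copies carry a promoter of their own, contributed little. The 36 L1Md members, several of them over 5 kb long, held 8 counts in the WT and 28 in the Lsh-/- fibroblast library, or 4.73% of the LINE counts of the latter (3.29% to 6.75%). No L1Md member had more than 3 counts there. Unique mapping removes reads from young copies that are nearly identical to one another, and how many were lost was not tested.

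Most LINE reads lay on older fragments. The 89 members of other mouse and rodent L1 families (Lx, L1_Mus, L1_Mur and relatives) had 3 and 500 counts in WT and Lsh-/- fibroblasts, and the 13 members of ancient L1 families had 0 and 41. These older families have no copies thought to be mobile in the mouse.

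An Lx8 fragment at chr2:87613905-87614622 (plus strand, 718 bp), 8071 bp from Olfr152, had the most, at 0 counts in the WT and 121 in the Lsh-/- fibroblast library (at least 39.1-fold). In embryos it had 0 and 5. Next to it, an Lx2 fragment from 87617236 had 0 and 55 counts in fibroblasts, a second Lx8 fragment from 87615415 had 0 and 50, and an L1_Mur2 fragment from 87616533 had 0 and 37. All 4 lay within a stretch of under 5 kb and were at 0 in both WT libraries. Further members with at least 10 counts were Lx8 fragments from 87615157 (0 and 17) and 87590050 (0 and 12), Lx2 fragments from 86177644 (0 and 19) and 86178242 (0 and 11), Lx9 from 86176093 (0 and 19), Lx3C from 85563497 (0 and 14) and L1VL4 from 85548105 (0 and 12). The twelfth was a 123 bp fragment of L3, an ancient CR1-like repeat, with 0 and 23 counts. It lies within the IAPLTR4 locus near Olfr1028, so the reads on it were also counted on that locus.

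All 12 exceeded a log2 difference of 5 (6.45 to 9.90), beside 8.74% of all LINE loci with at least 10 counts in the fibroblast pair. The median of the 12 was 7.23 and that of all such LINE loci 0.09. Since all 12 were at 0 in WT, these values depend on the prior. With the WT count set to 3 the median was 2.62 and 1 of the 12, the Lx8 fragment from 87613905, stayed above 5, beside 95 of 14058 LINE loci.

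**Figure D3:**
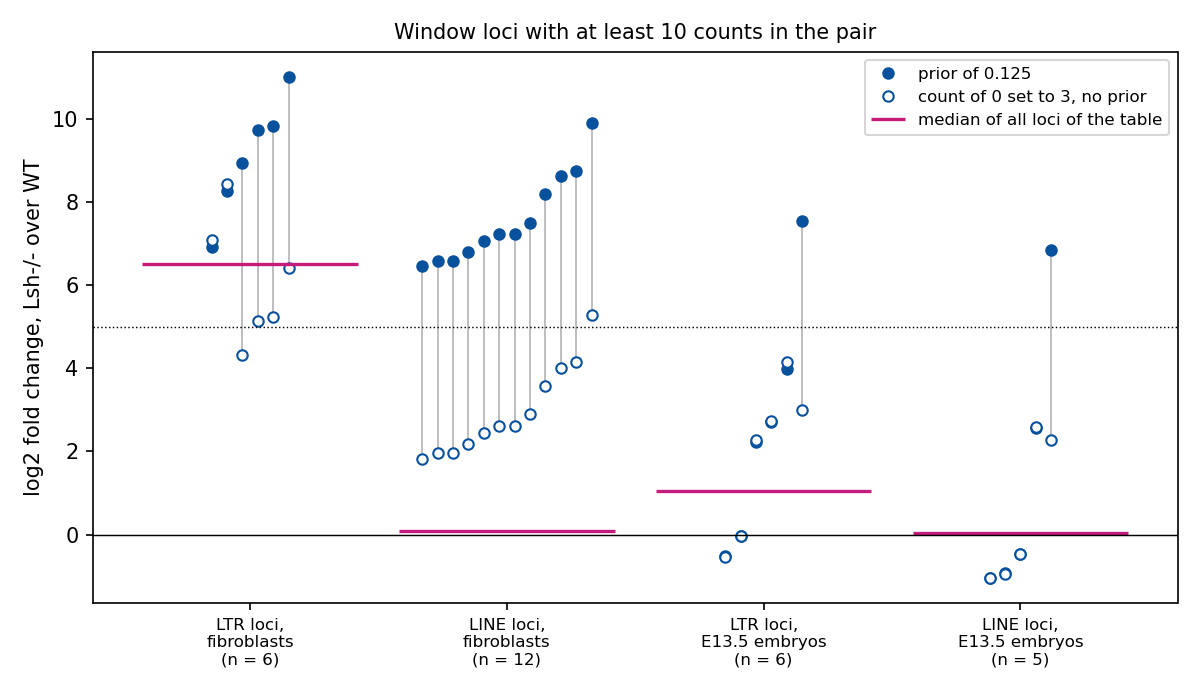
Log2 fold change (Lsh-/- over WT) of each window locus with at least 10 counts in the pair, by table and tissue. Filled points use the prior count, open points set a count of 0 to 3, the bar is the median of all loci of that table and the dotted line marks 5. All 18 fibroblast points lie above 6 with the prior, and 6 of the 18 lie above 5 when counts of 0 are set to 3.

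Over the window these reads came in stretches. Of the 592 LINE counts in Lsh-/- fibroblasts, 552 (93.2%) lay in 6 runs of at least 3 LINE loci listed in that library, with gaps under 50 kb. Loci listed in WT alone could not enter a run, and the loci of the 6 runs had 0 counts in WT fibroblasts. The gap was not varied and the share was not compared with other regions. The run with the most loci, 40 from 85542258 to 85605674, had 143 counts spread thinly (at most 14 on a locus), and began 3′ of the IAPLTR1a_Mm locus near Olfr1008. The richest, of 16 loci from 87588659 to 87668310, had 315 counts. A run of 12 loci from 89724555 to 89785266 had 26 counts and lay 3′ of RLTR11B, which had 1 count in WT embryos and 0 in the other libraries.

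**Figure D4:**
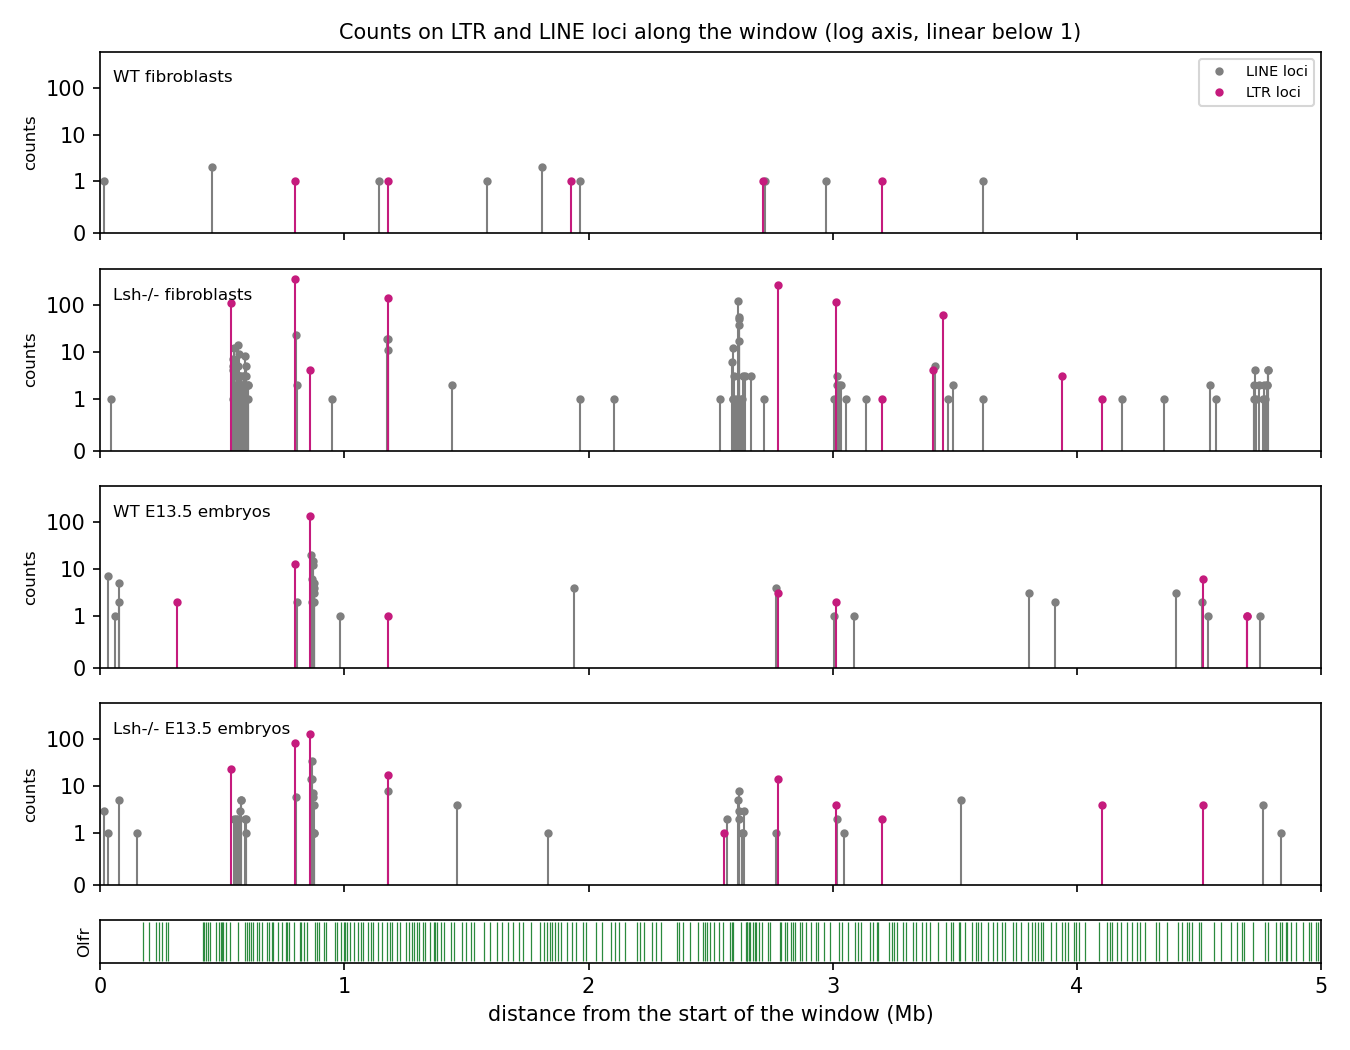
Counts on LINE loci (grey) and LTR loci (magenta) along the window in each library, on a log axis that is linear below 1, with Olfr genes as green ticks and position as distance from the start of the window in Mb. In Lsh-/- fibroblasts the LINE reads stand in stretches, 3 of them beside IAP loci near 0.5, 1.2 and 3.0 Mb and the richest near 2.6 Mb, and in embryos of both genotypes a stretch follows RLTR6_Mm.

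Most LINE reads lay on the 3′ side of the nearest LTR member, with exceptions. Measured along the strand of the nearest listed LTR member, 112 LINE members lay 3′ of it, 27 lay 5′ and 1 overlapped it. The 3′ members held 549 of the 592 counts in Lsh-/- fibroblasts (92.7%, interval 90.4% to 94.6%) and the 5′ members 20 (3.38%, 2.20% to 5.16%). In WT fibroblasts the sides held 5 and 6 counts, and in embryos the 3′ share was 78.3% (69.9% to 84.8%) in WT and 85.1% (79.1% to 89.7%) in Lsh-/-. Of the 549 counts, 328 lay over 50 kb from that LTR member, and 304 lay within 60 kb of RLTRETN_Mm near Olfr1137, which itself had 0 counts in fibroblasts. Some listed loci of 3 runs lay 5′ of their nearest LTR member, among them those 5′ of IAPEY_LTR in the run from 88420849. Only loci with a read in some library are listed, so the number of members on each side is itself part of this pattern. The deposited counts carry no strand for the reads.

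Some single elements showed the same asymmetry and others did not, with each LINE member assigned to the LTR member nearest to it. Within 60 kb 3′ of the IAPLTR1a_Mm locus near Olfr1008 there were 38 LINE members, which held 0 counts in the WT fibroblast library, 138 in the Lsh-/- one, and 0 and 24 in embryos, and none was listed on its 5′ side. The IAPLTR1_Mm locus at Olfr1055 had 4 on its 3′ side (1 and 49 counts in fibroblasts) and none 5′. Here the 3 members with most reads lay 1275 to 3401 bp beyond the end of the element. The locus near Olfr1168 had 6 on its 3′ side with 0 and 10 counts. A high count on the element went with few reads beyond it at other loci. The locus near Olfr1155, with 264 counts, had no listed LINE member within 60 kb 3′, and the locus near Olfr1028, with 358, had 1 with 0 and 2 counts. Flanking intervals within 20 kb 3′ of both were listed in Lsh-/- fibroblasts (6 of 6 and 5 of 5) and not in WT, with at most 3 and 2 counts. The IAPEY_LTR locus had none assigned on its 3′ side and 2 on its 5′ side, with 0 and 3 counts.

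RLTR6_Mm showed the same arrangement in embryos of both genotypes. The 12 LINE members within 60 kb 3′ of it, all within 13224 bp, held 75 counts in the WT embryo library, 83 in the Lsh-/- one and 0 in both fibroblast libraries. They include all 5 LINE members with at least 10 counts in the embryo pair. The L1_Mus4 fragment from 85868240 had 6 and 35 counts in WT and Lsh-/- embryos (ratio 6.06, interval 2.52 to 17.6), and the adjoining L1_Mur1 fragment from 85867715 had 0 and 14 (at least 4.85-fold). The other 3 had ratios below 1 with intervals that include 1. L1Md_A from 85863748 had 20 and 14 counts (ratio 0.727, 0.340 to 1.51), Lx2A1 from 85869685 had 15 and 7 (0.485, 0.167 to 1.26) and Lx6 from 85871608 had 12 and 6 (0.519, 0.160 to 1.49). Of the 5, 1 exceeded a log2 difference of 5, beside 3.09% of all LINE loci and 20.9% of 187 in other olfactory receptor clusters.

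**Figure D5:**
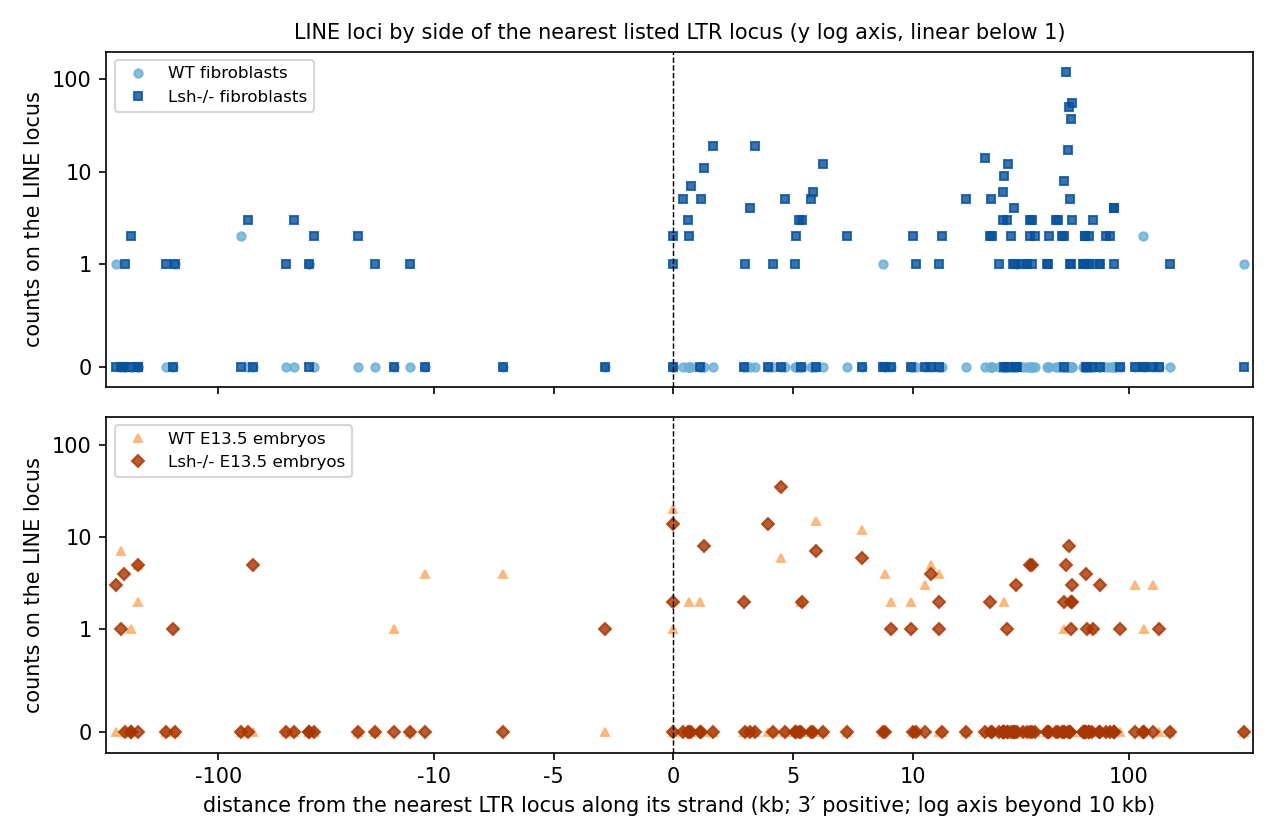
Counts on each LINE locus of the window (log axis, linear below 1) against its distance from the nearest listed LTR locus along that locus's strand, 3′ positive, on an axis that is logarithmic beyond 10 kb, for fibroblasts (top) and embryos (bottom). In Lsh-/- fibroblasts no locus on the 5′ side exceeds 3 counts, while loci on the 3′ side reach 121.

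The richest run had no LTR member listed in fibroblasts close to these fragments. Its nearest listed LTR member was RLTRETN_Mm near Olfr1137 (chr2:87556795-87562570, plus strand), which had 0 counts in both fibroblast libraries and lay 51334 bp away from the Lx8 fragment from 87613905. LTR loci without a read in any library are not listed. The mm9 sequence of chromosome 2 was therefore searched on both strands for exact copies of the first 60 bases of each IAP member, a search chosen after the counts had been seen. The 60 bases shared by 4 members occurred 8 times in the window, all within listed loci. Those of IAPLTR2_Mm near Olfr1229 occurred 4 times in the window, of 147 on the chromosome, and 3 of these copies lay outside any listed LTR locus. One of them, at chr2:87609527-87609676 on the plus strand, lies within the richest run, 4378 bp 5′ of the Lx8 fragment from 87613905. Its first 150 bases are shown beside those of the listed member, with CpG in capitals.
copy from 87609527: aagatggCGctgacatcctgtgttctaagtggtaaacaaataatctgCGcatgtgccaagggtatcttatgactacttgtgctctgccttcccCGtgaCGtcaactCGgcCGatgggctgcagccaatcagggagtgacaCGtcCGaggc
IAPLTR2_Mm near Olfr1229: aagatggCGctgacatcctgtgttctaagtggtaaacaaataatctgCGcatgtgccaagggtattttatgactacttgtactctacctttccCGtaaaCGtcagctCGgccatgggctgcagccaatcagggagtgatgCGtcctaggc
Within 20 kb 3′ of this copy lay 8 LINE members whose counts were 0 in the WT and 282 in the Lsh-/- fibroblast library, and 0 and 19 in embryos. Within 20 kb on its 5′ side lay 5 with 0 and 18 counts, and 0 in both embryo libraries. The other 2 unlisted copies, from 85776547 (plus strand) and 87217780 (minus strand), had no listed LINE member within 20 kb on either side. The match is a description of the sequence. The copy lies in no listed LTR locus, so its own reads were not measured. Whether the annotation used for the counts held it as an LTR locus was not checked. Unique mapping can also remove reads from bases that occur 147 times on the chromosome.

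The intervals flanking LINE repeats count reads at a fixed distance from each repeat, whether or not a repeat lies there. The deposited counts fitted intervals of 1 kb that begin 10 kb from the repeat. Of 3832 repeats with at least 20 counts that lie between 10 and 11 kb, 99.9% were covered, against 73.3% and 76.0% for the neighbouring kilobases. In this fit upstream means toward lower and downstream toward higher coordinates, whatever the strand of the repeat. The paper describes intervals of equivalent width beside LTR loci, and the fit was made on LINE intervals only. Upstream intervals held 49 and 1347 counts in WT and Lsh-/- fibroblasts (ratio 26.6), and downstream intervals 397 and 1762 (4.30). In embryos the ratios were 1.32 upstream and 1.21 downstream. Neighbouring intervals overlap, so some reads enter these sums more than once and no counting interval is given.

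With at least 10 counts in the fibroblast pair, 37 of 40 upstream and 38 of 44 downstream intervals exceeded a log2 difference of 5. Over all such intervals in the series the shares were 6.51% and 6.62%. In 22 other olfactory receptor clusters of at least 10 Olfr genes they were 27.8% of 291 and 31.9% of 279. Of the window's intervals 34 and 36 had 0 counts in WT, so that with the prior they had to exceed 5 once they had 10 counts. With counts of 0 set to 3, the window's intervals above 5 were 3 of 40 and 2 of 44. The numbers were then 476 of 58477 and 514 of 58135 in the series, and 11 of 291 and 7 of 279 in the other clusters. Many of the window's intervals reached into an IAP member, as 16 upstream and 13 downstream intervals did, and all 29 of these exceeded 5. Of those holding none of the listed repeats nor an exon, 9 of 11 upstream and 11 of 12 downstream exceeded 5.

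Among the intervals with most counts beyond that limit, those upstream of MusHAL1 (from 87623970; 0 and 97 counts) and of L1Md_F2 (from 87626985; 0 and 67) and the one downstream of Lx4A (from 87603796; 0 and 79) lay over the Lx8 stretch. Those downstream of L1Md_F3 (from 85793747; 0 and 79, and from 85793986; 0 and 67) lay within the IAPLTR4 locus near Olfr1028. The one with most counts that held no LTR or LINE member, downstream of Lx2 (from 86161567; 0 and 64), covered Olfr1054, the receptor gene that lies 3′ of the IAPLTR1_Mm locus at Olfr1055. No more than reads over its exon was measured, and whether they belong to a receptor transcript was not tested.

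In embryos, 15.8% of 437 upstream and 16.2% of 414 downstream intervals exceeded 5 in the other receptor clusters, beside 1.94% and 2.01% of all. In the window 0 of 21 and 3 of 28 did. The 3 lay over the IAPLTR4 locus near Olfr1028 (downstream of L1Md_F3 from 85793986, with 0 and 15 counts, and of Lx9 from 85791016, with 0 and 12) and over the Lx8 stretch (downstream of Lx4A from 87603796, with 0 and 10). All 3 also exceeded 5 in fibroblasts. The interval upstream of L1M4 (from 85086151) differed the other way, at 11 counts in the WT and 0 in the Lsh-/- embryo library, and was 1 of 21 upstream intervals lower by more than 5 on the log2 scale, beside 1.73% of all.

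A few intervals had reads in all 4 libraries. Downstream of L1_Mm from 87223436 the counts were 162 and 162 in WT and Lsh-/- fibroblasts and 249 and 191 in embryos. Downstream of L1Md_A from 87222042 they were 67, 78, 98 and 144 in the same order. Both lie over the pseudogene Gm1826, and the interval just beyond it, downstream of Lx2 from 87224087, had 41, 34, 73 and 21. With the library sizes used for single loci, the fibroblast ratios of these 3 were near 1, in contrast to the intervals around IAP members. In embryos, intervals over RLTR6_Mm had reads in both genotypes, such as that upstream of Lx7 from 85872828 with 57 and 70 counts. At the edge of the window, intervals over Lrrc55, which encodes an accessory subunit of potassium channels, had at most 1 count in a fibroblast library, and in embryos reached 30 and 45 counts downstream of L2b from 85019095. The 5 intervals beside LTR repeats had at most 11 counts, those of the interval downstream of the IAPLTR1a_Mm locus near Olfr1008 in Lsh-/- fibroblasts, where WT had 0.

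Of the 262 Olfr genes, 1 had an exon over an LTR or LINE member. This was Olfr1055, whose exon covers the 5′ end of the IAPLTR1_Mm locus on the same strand, and its reads there cannot be told apart from those of the element. Of the 46 other genes, the pseudogene Gm13765 had an exon over RLTR10 near Olfr1220 (3 counts). No other member had an annotated exon over it.

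Set beside the rest of the tables, the window differed most in its LINE loci in fibroblasts. Of the 102 LINE members listed in either fibroblast library, 93 (91.2%) were listed in Lsh-/- alone, against 26.4% on the rest of chromosome 2, 29.8% over all LINE loci and 58.4% in 22 other olfactory receptor clusters of at least 10 Olfr genes. In embryos 30 of 57 (52.6%) were listed in Lsh-/- alone, against 26.03%, 26.6% and 36.2% in the same order. Where a library has so few reads to list, a difference in listing is a coarse measure, and these shares carry no test.

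LINE loci exceeding a log2 difference of 5 in fibroblasts made up 12 of 12 in the window, 37.3% of 75 in the other receptor clusters and 6.28% of 1147 on the rest of chromosome 2. All 12 had 0 counts in WT and so had to exceed 5, and with counts of 0 set to 3 the numbers were 1 of 12, 3 of 75 and 4 of 1147. In embryos the LINE shares were 1 of 5, 20.9% of 187 and 2.58% of 1974 in the same order. For IAP loci in fibroblasts the shares were 6 of 6, 90.9% of 22 and 80.5% of 82. Of the loci tested, 4, 18 and 54 had 0 counts in WT and so had to exceed 5. In embryos the IAP shares were 1 of 5 in the window, 88.2% of 17 in the other clusters and 63.0% of 46 on the rest of chromosome 2. With counts of 0 set to 3, the IAP loci above 5 were 5 of 6, 6 of 22 and 21 of 82 in fibroblasts and 0 of 5, 4 of 17 and 5 of 46 in embryos. These shares carry no test and rest on few members in the window. LINE members were also longer, with a median width of 593.5 bp against 284 bp for LINE loci listed on the rest of chromosome 2. They had 4.17 CpG per kb against 5.30. The mix of families differed too, and the other receptor clusters were not measured. Against all listed loci, median widths were 2754.5 and 996 bp for L1Md and 498 and 451 bp for other mouse and rodent L1. They were 268 and 211 bp for ancient L1, and 110 and 127 bp for L2, CR1 and RTE.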

How the data were processed

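RNA-seq was performed once in each of 4 groups, and groups were taken from the labels. Per the labels and the methods, the dUTP protocol was used to keep the strand and both ends were sequenced. The authors mapped the reads to mm9 with TopHat 1.4.0 allowing no mismatch, kept uniquely mapped reads and joined them to the RepeatMasker annotation. The deposited values are raw counts of reads per repeat and per flanking interval, in 6 tables per library, and were not normalized. It is not stated if the 2 reads of a pair count as 1. A locus that a library did not list was given a count of 0. Unique mapping removes reads from nearly identical copies. No column was left unassigned.

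Starts count from 0 in the tables, since 96.2% of 131 IAP loci over 4 kb on chromosome 2 begin with TG when read so and 0.763% otherwise. Coordinates are printed from 1. Sequence came from the genome (samtools 1.23.1, pysam 0.24.0) and genes from GENCODE vM1.

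Libraries of a pair were scaled by TMM (edgeR 4.0.16, R 4.3.3) over intervals flanking LINE-1 loci, with effective sizes of 19481559 and 20118423 in fibroblasts and 27051956 and 26054891 in embryos. Log2 fold changes (Python 3.11.15, NumPy 2.4.6, SciPy 1.17.1) used a prior count of 0.125 and a minimum of 10 counts over both libraries, and the limit was 5. Ratios of element loci have 95% exact conditional binomial intervals and shares 95% Wilson intervals, all covering counting error only. Genotypes were not tested against each other, as each group has 1 library. On a simulated fibroblast pair, TMM missed the log2 size ratio by 0.04 over the flanking intervals. There 100% of raised LTR loci (1437 simulated, 200 changed) and 99% of raised LINE loci (6702 simulated, 200 changed) exceeded 5. Beside them 1 and 6 unchanged loci lay beyond 5 in either direction. Simulated loci had an expected WT count of at least 10, so the simulation does not cover members with 0 counts in WT.

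Named loci were every IAP member and every LTR member with at least 10 counts in a pair, the 10 LINE members with the largest total and the 5 with the largest and the smallest log2 fold change in each pair, the 5 flanking intervals with the largest total and the 5 beyond the limit with most counts, and genes with exons over members. Some intervals under this rule are given by counts only, and a few loci outside it (further LTR members and single intervals) are named to account for all members. Families were grouped by name, and L1_Mm (with mouse and rodent L1) and MusHAL1 (with ancient L1) were placed after their values were seen. The runs of LINE loci and the search for copies of IAP starts were chosen after the counts had been seen. Members and lists were chosen with earlier results of these data known. Figures were drawn with matplotlib 3.10.9. Alternatives were other library scalings (DESeq2 1.42.0 size factors, total counts), other priors, count minimums and limits, and subsets of members.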

Additional observations from a re-analysis of the deposited data

Results flagged for a closer look

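The 3 intervals downstream of L1_Mur1 fragments from 87392210, 87392872 and 87393119 drew attention because the difference between genotypes had opposite signs in fibroblasts and embryos. The counts were the same for all 3, at 32 and 15 in WT and Lsh-/- fibroblasts and 24 and 34 in WT and Lsh-/- embryos, and the 3 intervals overlap over the pseudogene Gm13743, so they are not 3 separate measurements. The log2 fold change was -1.13 in fibroblasts and 0.55 in embryos, a difference of -1.69 for each. With 1 library per group this difference was not tested.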

How the results depend on the processing

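All values rest on 1 library per group, so leaving out a replicate gives no value. No paired analysis or model with tissue as a block was run, and each group has 1 library. No median and no LTR or LINE member with at least 10 counts in a pair reversed in direction under an alternative. Single flanking intervals were not checked in this way. Those downstream of L1_Mm from 87223436 and of Lx2 from 87224087 had fibroblast log2 fold changes of -0.05 and -0.32. Both are smaller in size than the 0.68 by which scaling to total counts shifts the fibroblast pair, so their direction depends on the scaling. Scaling by the total of all 6 tables shifted the log2 ratio of the fibroblast library sizes by 0.68 toward higher fold changes. The shift is smaller at loci with 0 counts, because of the prior. The median of the element members of the window went from 7.85 to 8.22. DESeq2 size factors shifted the fibroblast size ratio by 0.05 in the same direction. Neither scaling changed the number of members beyond the limit in any pair. The ratio of window LTR counts in fibroblasts was 82.5 by share of the table and 206 by TMM size. The 18 element loci above 5 in fibroblasts became 10 with a prior count of 1 (median 5.44 in place of 7.85), 36 among all listed loci (median 4.07), 9 of 9 with at least 50 counts, and 6 with counts of 0 set to 3 (median 3.80), an alternative added after the data had been seen. The 2 above 5 in embryos became 0 with a prior of 1, at 50 counts and with counts of 0 set to 3, and 12 among all listed loci (4 then lower by more than 5), and 6 exceeded a limit of 1 (1 in the other direction). The 76 flanking intervals above 5 in fibroblasts became 18 with a prior of 1 (median 4.30 in place of 6.90), 126 among all listed (4.07), 16 of 19 with at least 50 counts (median 8.68) and 5 with counts of 0 set to 3 (2.62). The 3 in embryos became 0 with a prior of 1, at 50 counts and with counts of 0 set to 3, and 51 among all listed (median 3.19 in place of 0.31, with 13 lower by more than 5), and 13 exceeded a limit of 1 (8 in the other direction). With clusters taken as runs of at least 5 Olfr genes with gaps under 200 kb, in place of at least 10 genes and 500 kb, the share of element loci above 5 in other receptor clusters was 61.9% in place of 50.5% in fibroblasts and 39.0% in place of 26.3% in embryos.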
